A study of Homo sapiens with 12 samples.

Results

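The 31 genes described here make cholesterol, sense it, carry it between membranes, store it or export it. They were picked by gene symbol from a table of 62753 genes: 8 mevalonate enzymes, 11 enzymes of squalene and sterol synthesis, 5 SREBP regulators and 7 genes of transport, storage and export. All 31 were found in the table. They were listed by their role, with earlier results of these data known. RNA was sequenced from H9, an established human embryonic stem cell line, in 4 groups of 3 libraries. By the labels, every group was cultured as naive cells in PXGL. PXGL is N2B27 medium with PD0325901 (a MEK inhibitor), XAV939 (a tankyrase inhibitor), Go 6983 (a protein kinase C inhibitor) and human LIF. Cells sat on a layer of mouse embryonic fibroblasts. The siNC group has the genotype label WT, siOGA the label OGA knockdown and siP300 the label EP300 knockdown. The libraries labelled siP300+OGA carry the genotype OGA overexpression, and their titles, unlike the others, do not name PXGL. The construct used for OGA is not stated. OGA takes the sugar O-GlcNAc off proteins, whereas EP300 acetylates histones. By its title, the series concerns the role of OGA in the states of pluripotency.

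Cholesterol is built from acetyl-CoA through mevalonate, isoprenoid diphosphates, squalene and lanosterol. When membrane sterol is low, the escort protein SCAP takes SREBP transcription factors to the Golgi, where proteases release them to switch on the genes of synthesis. When sterol is plentiful, INSIG proteins hold SCAP and SREBP in the endoplasmic reticulum, and oxysterols activate LXR receptors, which switch on export genes such as ABCA1 and ABCG1.

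The DNA upstream of 6 members is shown because these genes moved in opposite directions in siOGA. HMGCS1, STARD4, INSIG1 and SREBF2 were higher there, and PMVK and SREBF1 were lower. Each sequence is the 250 bases before the RefSeq start on GRCh38.p14, read 5′ to 3′ on the gene's strand. These starts lay 0 to 102 bases from the 5′ ends that the expression table lists. Capitals mark the SREBP site TCACNCCAC, the E-box CACGTG and the NF-Y site CCAAT, on either strand (CCAAT then reads ATTGG). The windows were HMGCS1 at chr5:43313413-43313662 (minus), STARD4 at chr5:111512536-111512785 (minus), INSIG1 at chr7:155297628-155297877 (plus), SREBF2 at chr22:41832855-41833104 (plus), PMVK at chr1:154936720-154936969 (minus) and SREBF1 at chr17:17836987-17837236 (minus).
HMGCS1: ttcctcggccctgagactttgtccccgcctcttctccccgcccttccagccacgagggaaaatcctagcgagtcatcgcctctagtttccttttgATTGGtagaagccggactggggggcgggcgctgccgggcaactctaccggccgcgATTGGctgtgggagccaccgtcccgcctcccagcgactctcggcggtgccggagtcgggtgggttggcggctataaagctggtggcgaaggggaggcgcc
STARD4: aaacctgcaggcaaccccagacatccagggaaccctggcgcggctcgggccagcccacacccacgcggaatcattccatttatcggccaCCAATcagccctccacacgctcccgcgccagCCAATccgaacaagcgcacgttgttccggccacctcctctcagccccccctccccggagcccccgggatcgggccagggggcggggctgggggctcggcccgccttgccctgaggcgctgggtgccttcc
INSIG1: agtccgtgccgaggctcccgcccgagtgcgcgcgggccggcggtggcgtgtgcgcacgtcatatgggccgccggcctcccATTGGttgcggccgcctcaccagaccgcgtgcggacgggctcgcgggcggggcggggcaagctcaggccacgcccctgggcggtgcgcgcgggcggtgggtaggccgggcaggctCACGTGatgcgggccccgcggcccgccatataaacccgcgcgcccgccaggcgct
SREBF2: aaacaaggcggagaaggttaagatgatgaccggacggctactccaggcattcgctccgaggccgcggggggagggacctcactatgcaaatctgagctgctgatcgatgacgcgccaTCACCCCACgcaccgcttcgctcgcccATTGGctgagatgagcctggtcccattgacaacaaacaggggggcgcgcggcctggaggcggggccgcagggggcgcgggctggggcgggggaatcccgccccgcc
PMVK: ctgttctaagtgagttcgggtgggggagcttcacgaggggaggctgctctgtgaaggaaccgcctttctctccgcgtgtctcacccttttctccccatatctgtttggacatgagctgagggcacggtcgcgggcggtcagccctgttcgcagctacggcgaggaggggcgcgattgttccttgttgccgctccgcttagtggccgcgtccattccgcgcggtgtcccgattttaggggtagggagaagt
SREBF1: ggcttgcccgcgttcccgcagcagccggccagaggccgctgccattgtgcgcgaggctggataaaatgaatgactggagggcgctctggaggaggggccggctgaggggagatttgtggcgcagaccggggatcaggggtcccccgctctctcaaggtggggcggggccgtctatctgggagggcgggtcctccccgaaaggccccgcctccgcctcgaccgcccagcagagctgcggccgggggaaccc
SREBF2, the gene of the transcription factor itself, held the SREBP site that was searched for, and INSIG1 held an E-box. HMGCS1 and STARD4 each held 2 NF-Y sites, and INSIG1 and SREBF2 each held 1. PMVK and SREBF1 held none of these 3 motifs. Not all members not shown followed this split. NSDHL, called lower in siOGA, held 5 NF-Y sites, while CYP51A1, DHCR7 and INSIG2, called higher there, held none of the 3 motifs.

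Across the members, 27 of 31 had a RefSeq window, and SQLE, FDFT1, ACAT2 and ABCG1 had none. The windows of DHCR7 and SCAP are counted although their starts lay 3825 and 1185 bases from the listed 5′ ends. The NF-Y site CCAAT was in 18 of the 27 (66.7%) and in 32% of all 35116 promoter windows of that length. At least 2 copies were in 11 members (40.7%) and in 9.53% of all windows. By direction in siOGA, CCAAT was in 13 of 17 members that were higher and in 4 of 8 that were lower. The SP1 site GGGCGG, searched on both strands too but not capitalised, was in 24 of 27 (88.9%) against 42.6%. The E-box was in 4 of 27 (14.8%) against 6.34%, and TCACNCCAC in 1 of 27 (3.70%) against 0.883%. No match of one motif shared a base with a match of another. A match describes these letters only, and no binding was measured.

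The libraries held 16238225 to 18714572 reads in genes, recovered from the deposited FPKM (fragments per kilobase of gene, scaled to library size). One read per kilobase equalled 0.0518 to 0.0647 FPKM. OGA stood at a mean of 40.5 FPKM in siNC and 8.10 in siOGA, and EP300 at 23.2 in siNC and 13.3 in siP300. OGA was 39.8 in siP300 and 43.8 in the libraries labelled siP300+OGA, a difference that did not pass the test. EP300 was at 15.4 in siP300+OGA, lower than in siNC (log2 difference −0.56) and higher than in siP300 (0.20, limma adjusted p = 0.000182). Markers of cell state moved with the groups. The 3 core pluripotency markers summed to 546 to 582 FPKM in siNC and 601 to 723 in siOGA. They summed to 354 to 368 in siP300 and 525 to 538 in siP300+OGA. All 3 were lower than siNC in siP300, while in siOGA 2 were higher and 1 lower. The summed level of 7 naive markers was 1250 to 1295 FPKM in siNC, 790.4 to 847 in siOGA, 486 to 488 in siP300 and 649 to 671 in siP300+OGA. That of 6 primed markers, which mark a later pluripotent state, was 30.0 to 32.6, 108 to 114, 81.2 to 84.9 and 82.3 to 87.7 in the same order. Of the 5 tested, all were higher than siNC in siOGA. In siP300 4 were higher and 1 lower, and in siP300+OGA 3 and 1. Similar sums hid opposite moves, since siP300+OGA had 2 higher and 3 lower than siP300 (log2 differences −3.04 to 0.75). Among 7 fibroblast markers the sum was 5.00 to 5.65 in siNC, 14.8 to 16.2 in siOGA, 33.7 to 34.6 in siP300 and 16.0 to 16.7 in siP300+OGA. All 3 fibroblast markers that reached the expression minimum were higher than siNC in both siOGA and siP300, while DCN and LUM had group means of 0 to 0.0807 FPKM. For 5 genes of liver and steroid-producing cells, which also use this pathway, the sum was 0.570 to 0.941 FPKM in siNC. It was 1.39 to 2.06 in siOGA, 1.53 to 1.77 in siP300 and 1.047 to 1.47 in siP300+OGA. These sums were low, but every siNC library lay below every other library. None of the 5 reached the expression minimum, and ALB and CYP7A1 had group means of 0 to 0.0344. What part these shifts had in the results below was not tested. In bulk RNA, fewer cells of a type and less RNA per cell cannot be told apart.

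Silencing OGA was followed by higher transcripts of most of the pathway. Of the 30 members that reached a mean of 1 FPKM, 20 were higher in siOGA than in siNC, 8 were lower and 2 did not pass the test. The test was limma on log2(FPKM + 1) with a Benjamini-Hochberg adjusted p under 0.05 over 13166 genes. Over all genes tested, 66.9% were called, 34% higher and 32.9% lower, so the higher share of members (66.7%) was above the background and the lower share (26.7%) near it. The median log2 difference of the members was 0.69, beside 0.01 for all genes tested. The members ranged from −1.16 (PMVK) to 1.94 (HMGCS1), where the median absolute difference of all genes tested was 0.30. The libraries of the 2 groups did not overlap in 28 of the 30 members (93.3%) and in 68.6% of all genes tested. Whether the libraries of a group were separate cultures is not in the labels. The p-values here set each group difference against the spread between libraries, which may be technical, so they may not extend to new cultures.

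**Figure D1:**
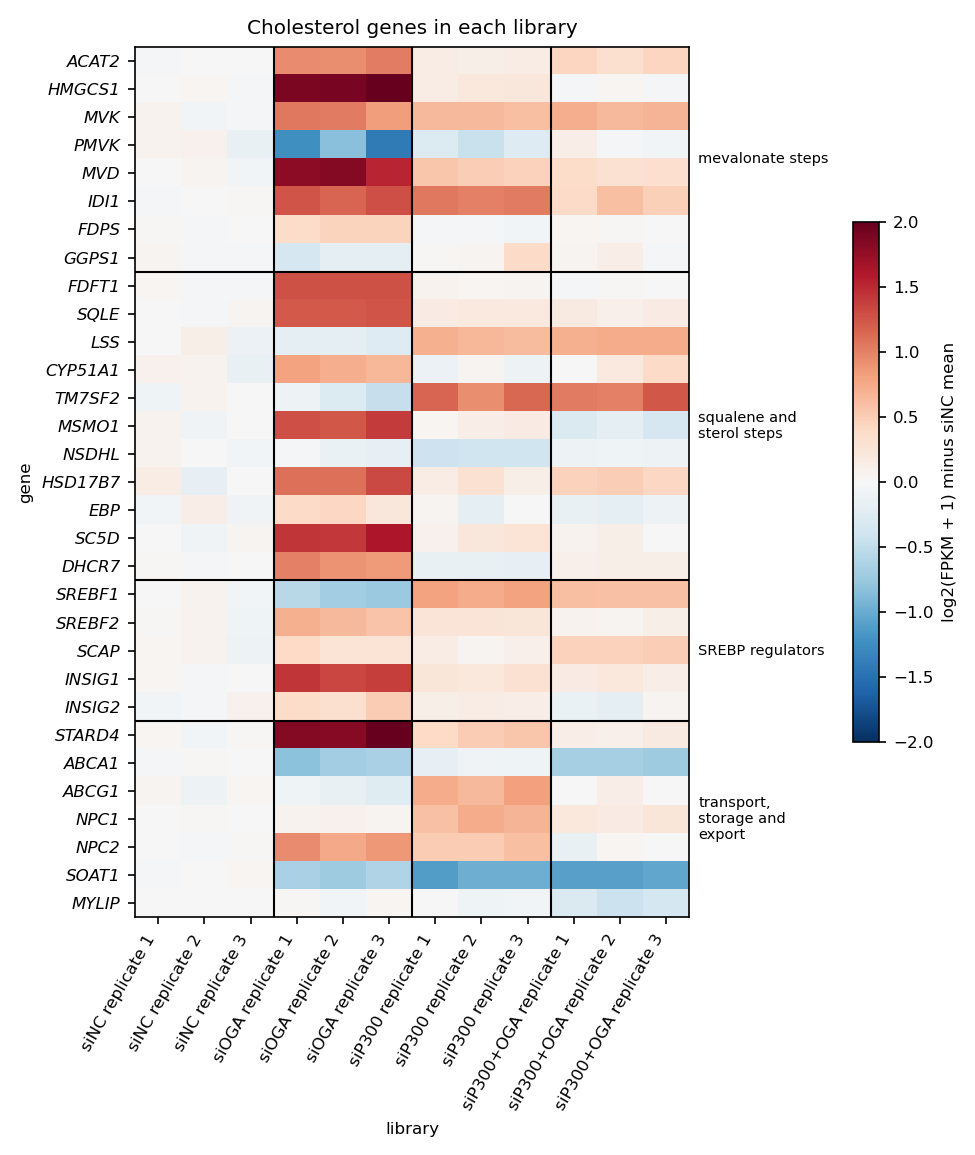
Log2(FPKM + 1) of each of the 31 members (rows, by role) in each of the 12 libraries (columns), minus the mean of the 3 siNC libraries. Red is higher and blue lower than siNC. The siOGA columns are mostly red with PMVK, SREBF1, ABCA1 and SOAT1 in blue, while in siP300 the strongest reds are TM7SF2, IDI1 and SREBF1.

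In the mevalonate steps 6 of 8 enzymes were higher in siOGA and 2 were lower (75% and 25%, beside 34% and 32.9% of all genes tested). HMGCS1 makes HMG-CoA, the substrate of the pathway's main control step (ENSG00000112972, GRCh38 chromosome 5, 43287470 to 43313512, minus strand). It stood at 44.2, 45.1 and 43.0 FPKM in the siNC libraries and at 166, 167 and 182 in siOGA. Every siOGA library was far above every control library, and the log2 difference was 1.94 ± 0.0405 (SE, n = 3 per group, limma adjusted p = 5.68e-11). MVD, which decarboxylates mevalonate diphosphate to an isoprenoid unit, went from 16.0, 16.7 and 15.4 to 58.0, 59.8 and 47.7 FPKM (1.72, adjusted p = 5.97e-09). One siOGA library lay below the other 2 there, but all 3 were well above the controls. ACAT2, the thiolase of the first condensation, rose from 38.2 ± 0.586 to 75.6 ± 2.44 FPKM (mean ± SD, n = 3, log2 difference 0.97). IDI1, which isomerises the isoprenoid unit, rose from 12.9 ± 0.309 to 31.9 ± 1.48 (1.24), and MVK, mevalonate kinase, from 2.54 ± 0.159 to 5.98 ± 0.595 (0.98). FDPS, which joins isoprenoid units into farnesyl diphosphate, moved least among the 6, from 21.4 ± 0.327 to 29.0 ± 0.956 (0.42).

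PMVK went the other way. It adds the second phosphate to mevalonate, between the steps of MVK and MVD (ENSG00000163344, chromosome 1, 154924740 to 154936719, minus strand). Its level was 16.3, 16.5 and 13.9 FPKM in siNC and 6.07, 8.24 and 5.19 in siOGA, a log2 difference of −1.16 ± 0.127 (adjusted p = 1.09e-05). The groups did not overlap, although the highest siOGA library was well above the other 2. MVK, the step before PMVK, and MVD, the step after it, stood at 235% and 344% of siNC in FPKM, and PMVK at 41.7%. GGPS1 makes geranylgeranyl diphosphate for protein prenylation, on a branch away from sterols, and stood at 2.89, 2.71 and 2.66 against 1.99, 2.33 and 2.28 FPKM (−0.23, adjusted p = 0.0418). That call was lost without any one of siNC replicates 1, 2 or 3, siOGA replicates 1 or 3, or siP300+OGA replicate 1 (adjusted p = 0.0543 to 0.136).

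Of the 11 squalene and sterol enzymes, 8 were higher in siOGA and 3 were lower (72.7% and 27.3%, beside 34% and 32.9% of all genes tested). FDFT1, squalene synthase and the first enzyme committed to sterols, was at 81.0, 78.1 and 78.2 FPKM in siNC and 192, 193 and 192 in siOGA (1.27 ± 0.0241, adjusted p = 3.55e-11). The siOGA libraries lay close together and far from the controls. SQLE, squalene epoxidase, a rate-limiting enzyme of the sterol branch, was at 49.8, 48.4 and 52.0 against 118, 118 and 122 FPKM (1.24, adjusted p = 2.04e-10). LSS, which closes squalene epoxide into lanosterol in the very next step, did not follow. It stood at 23.3, 25.2 and 21.2 FPKM in siNC and 20.3, 20.3 and 19.2 in siOGA (−0.21 ± 0.0523, adjusted p = 0.00435), but passed as higher (0.31) once the median change of its chromosomal region was removed. The ratio of SQLE to LSS was 2.17 ± 0.264 in siNC and 5.99 ± 0.298 in siOGA (SD, n = 3).

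After lanosterol, the sterol ring loses methyl groups and its double bonds are moved and reduced. MSMO1, the oxidase of methyl removal, was at 71.6, 64.8 and 68.6 FPKM in siNC and 168, 163 and 181 in siOGA (1.31, adjusted p = 6.41e-09). HSD17B7, the reductase that works with it, rose from 5.95 ± 0.750 to 14.7 ± 1.42 FPKM (1.17). NSDHL, the dehydrogenase between these enzymes, stood at 36.2, 34.0 and 33.0 against 33.4, 31.2 and 30.4 FPKM. Its groups overlapped, and its log2 difference of −0.12 (adjusted p = 0.0228) did not pass without siNC replicate 1 (adjusted p = 0.101), siOGA replicate 2 (0.0648) or siOGA replicate 3 (0.0764). SC5D, a sterol desaturase, rose from 8.43 ± 0.419 to 25.4 ± 2.14 FPKM (1.49), the largest rise among the 11. DHCR7, which reduces the last double bond on one route to cholesterol, rose from 31.9 ± 0.429 to 61.6 ± 3.49 (0.93). CYP51A1, lanosterol demethylase, rose from 2.24 ± 0.294 to 4.37 ± 0.263 (0.73) and EBP, a sterol isomerase, from 19.6 ± 1.66 to 25.0 ± 1.69 (0.34). TM7SF2, a sterol reductase, was at 3.71, 4.25 and 3.98 FPKM in siNC and at 3.65, 3.11 and 2.60 in siOGA (−0.28, adjusted p = 0.0278). That call did not hold without siNC replicate 2 (adjusted p = 0.0893) or 3 (0.0591), or siOGA replicate 2 (0.0567) or 3 (0.111), nor with a pseudocount of 5 (0.0554) or with no expression minimum (0.0715).

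**Figure D2:**
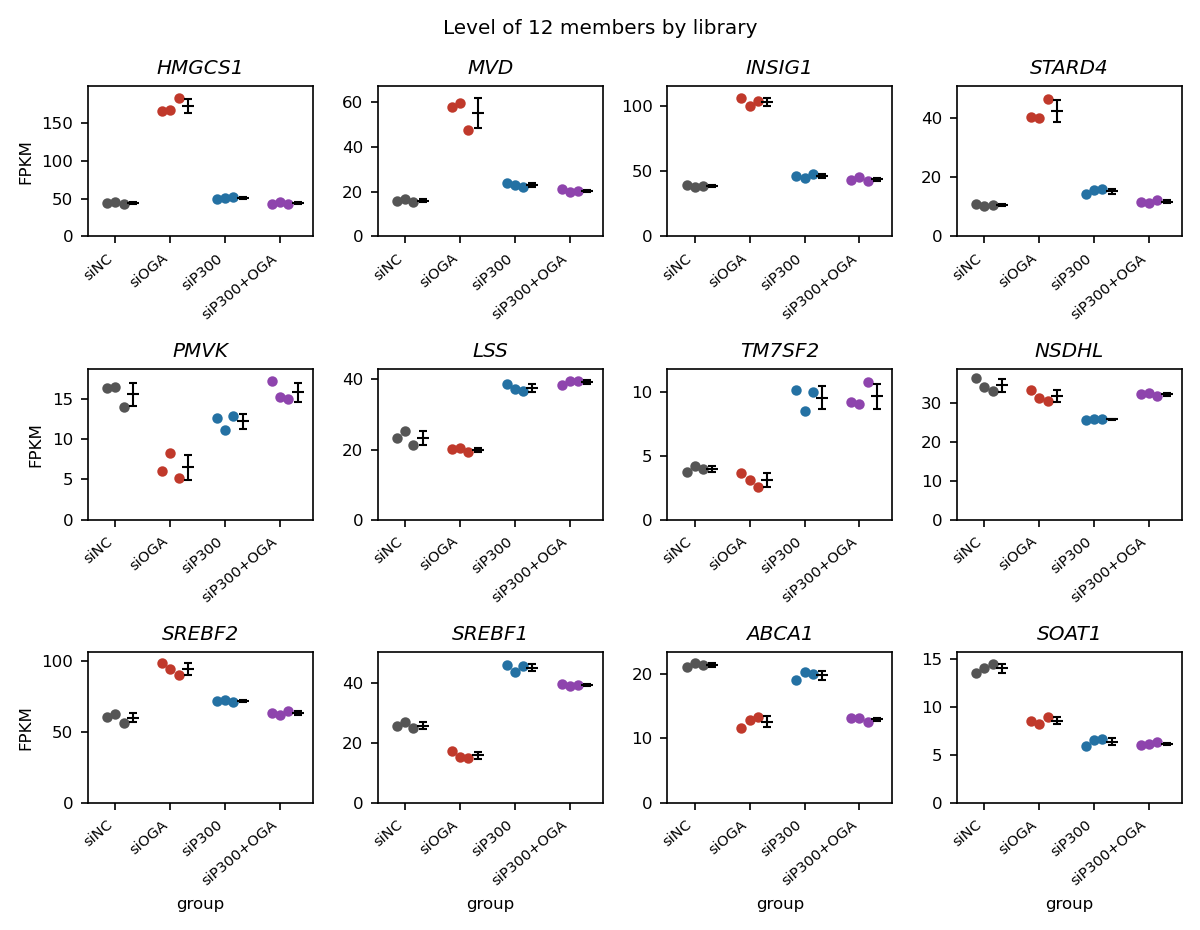
FPKM of 12 members in each library, 1 panel per gene with its own linear axis from 0. Points are the 3 libraries of a group, and the bar beside them is the mean with its SD. HMGCS1, MVD, INSIG1 and STARD4 stand apart in siOGA, whereas LSS, TM7SF2 and SREBF1 are highest in siP300 and siP300+OGA.

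The SREBP genes themselves parted in siOGA. SREBF2 encodes the SREBP that mainly drives cholesterol synthesis (ENSG00000198911, chromosome 22, 41833105 to 41907306, plus strand). It stood at 60.8, 62.7 and 56.6 FPKM in siNC and 98.7, 94.6 and 89.9 in siOGA (0.64 ± 0.0422, adjusted p = 1.9e-07). SREBF1, whose products lean towards fatty acid synthesis (ENSG00000072310, chromosome 17, 17810399 to 17837002, minus strand), fell from 25.5, 26.9 and 24.8 to 17.1, 15.4 and 15.0 FPKM (−0.67 ± 0.0466, adjusted p = 3.18e-07). Neither pair of groups overlapped, and the ratio of SREBF2 to SREBF1 went from 2.33 ± 0.0505 to 5.96 ± 0.190. INSIG1, itself an SREBP target that restrains SREBP release, was at 39.7, 37.8 and 38.9 FPKM in siNC and 106, 99.6 and 103 in siOGA (1.39, adjusted p = 2.2e-10). INSIG2, its less sterol-responsive relative, rose from 3.62 ± 0.225 to 5.09 ± 0.421 (0.40), so the ratio of INSIG1 to INSIG2 was 10.7 ± 0.745 in siNC and 20.3 ± 1.5 in siOGA. SCAP, the escort, rose from 15.9 ± 1.09 to 19.97 ± 1.03 FPKM (0.31, adjusted p = 0.000224).

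Among the 7 genes of transport, storage and export, 2 were higher in siOGA, 2 were lower and 2 did not pass, with ABCG1 below the minimum. Of the 6 tested, 33.3% were higher and 33.3% lower, near the shares over all genes tested (34% and 32.9%). STARD4 carries cholesterol between membranes (ENSG00000164211, chromosome 5, 111496033 to 111512590, minus strand). It went from 10.9, 10.1 and 10.8 to 40.3, 39.9 and 46.5 FPKM, nearly as large a log2 difference as that of HMGCS1 (1.9 ± 0.0598, adjusted p = 8.5e-10). NPC2 binds cholesterol inside lysosomes and rose from 22.6 ± 0.455 to 41.8 ± 2.86 FPKM (0.86), while its partner NPC1, the lysosomal membrane transporter, stood at 7.49 ± 0.103 and 7.91 ± 0.114. The NPC1 difference did not pass (0.07, 95% interval −0.03 to 0.16). ABCA1, which exports cholesterol to lipoproteins, was at 21.0, 21.7 and 21.3 FPKM in siNC and at 11.6, 12.8 and 13.2 in siOGA (−0.73, adjusted p = 1.37e-07). SOAT1 esterifies cholesterol for storage (ENSG00000057252, chromosome 1, 179293714 to 179358680, plus strand), and fell from 13.5, 14.0 and 14.5 to 8.54, 8.18 and 8.91 FPKM (−0.65, adjusted p = 4.35e-07). Both genes were lower in every siOGA library than in any control library. MYLIP, a ubiquitin ligase that marks lipoprotein receptors for degradation, stood at 30.6 ± 0.234 and 30.7 ± 0.997 FPKM (0.01, 95% interval −0.08 to 0.09).

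With the EP300 siRNA, 19 of the 30 members tested were called, near the share over all genes (65.9%), but more of them were higher. In siP300, 15 were higher than siNC, 4 were lower and 11 did not pass. Over all genes tested 65.9% were called, 30.2% higher and 35.7% lower, against 50.0% and 13.3% of the members. The members' median log2 difference was 0.17, beside −0.04 for all genes. The libraries of the 2 groups did not overlap in 24 of the 30 members (80%) and in 70.9% of all genes tested. With quantile normalization the split of called members was 18 higher to 2 lower, beside 4086 higher and 4624 lower of all 13166 genes tested. The comparison uses the same siNC libraries as the one above, so the values are set side by side.

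The sterol enzymes TM7SF2 and LSS, whose lower calls in siOGA depended on the processing, were higher in siP300. TM7SF2 (ENSG00000149809, chromosome 11, 65111845 to 65116384, plus strand) was at 10.2, 8.50 and 10.0 FPKM in siP300 beside 3.71, 4.25 and 3.98 in siNC (1.08, adjusted p = 2.53e-06). LSS was at 38.8, 37.2 and 36.6 FPKM beside 23.3, 25.2 and 21.2 (0.67, adjusted p = 6.38e-07). All siP300 libraries were above all controls for both genes. SREBF1 was at 45.8, 43.7 and 45.4 FPKM beside 25.5, 26.9 and 24.8 (0.78, adjusted p = 7.24e-08), and SREBF2 at 71.8 ± 0.515 beside 60.0 ± 3.14 (0.26, adjusted p = 0.000253). The ratio of SREBF2 to SREBF1 was 1.60 ± 0.0491 in siP300, below the 2.33 of siNC. IDI1 rose to 28.0, 26.9 and 27.7 FPKM (1.04, adjusted p = 1.91e-08).

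**Figure D3:**
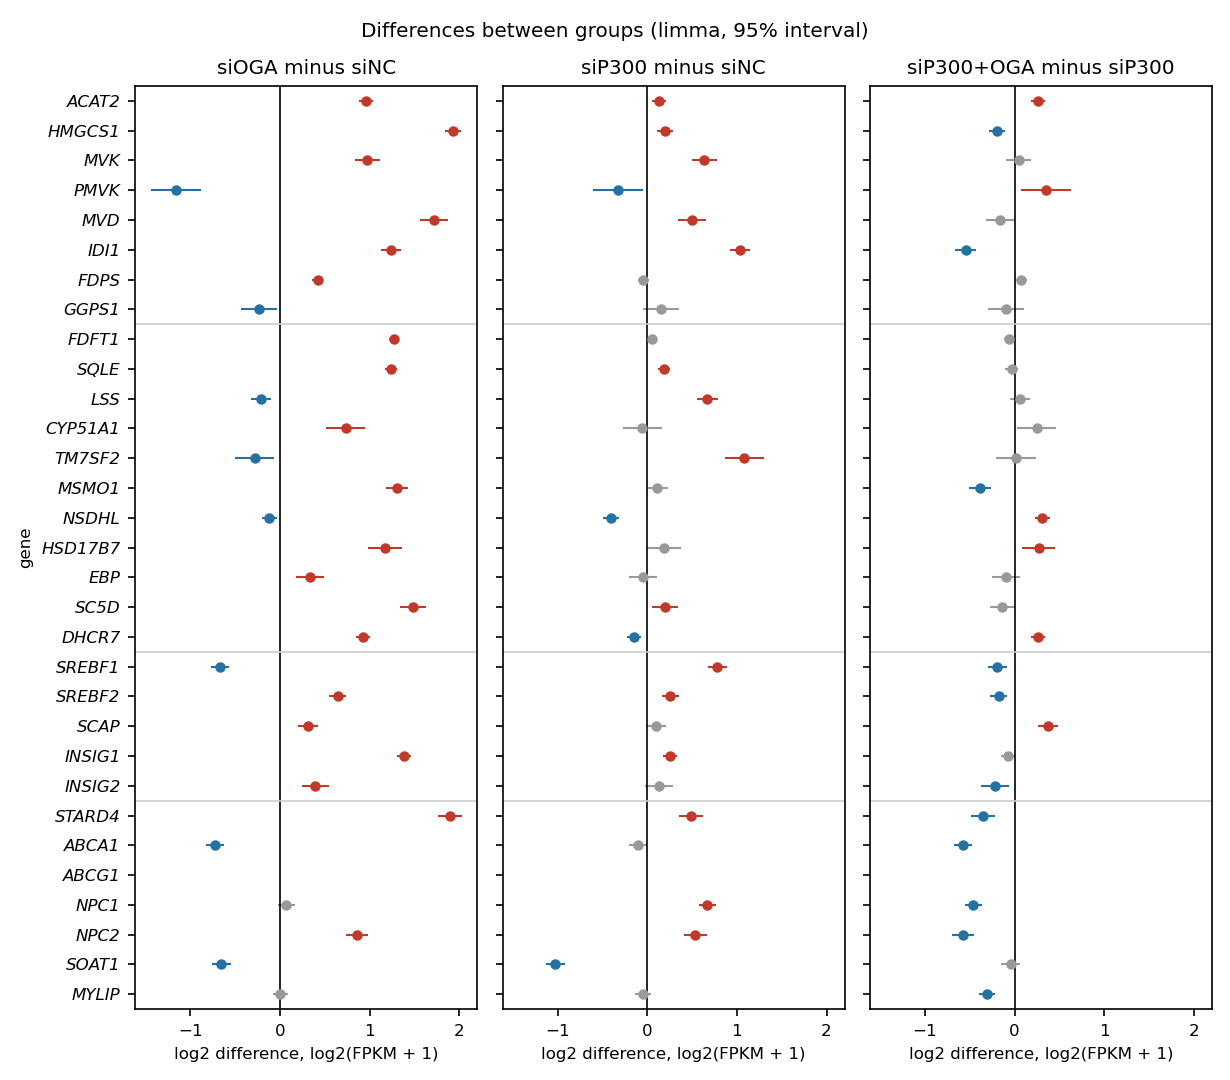
Log2 difference of each member on the log2(FPKM + 1) scale in 3 comparisons, with the 95% interval from limma. Red passed as higher, blue as lower, and grey did not pass; ABCG1 was not tested. In siOGA minus siNC the points reach 1.94, in siP300 minus siNC 1.08, and in siP300+OGA minus siP300 they stay between −0.58 and 0.37.

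HMGCS1, INSIG1, SQLE and SC5D passed in siP300 too, with log2 differences of 0.18 to 0.25, where siOGA gave 1.24 to 1.94. SC5D did not pass without siNC replicate 2 (adjusted p = 0.0713) or siP300 replicates 2 (0.0568) or 3 (0.0766). MVK (0.64), MVD (0.50) and STARD4 (0.49) rose by more, and ACAT2 by less (0.13). FDFT1, FDPS, GGPS1, CYP51A1, MSMO1, HSD17B7, EBP, SCAP, INSIG2, ABCA1 and MYLIP did not pass. Of these FDFT1 was at 82.1 ± 0.977 FPKM beside 79.1 ± 1.66 in siNC, a difference of 0.05 with a 95% interval of 0.00 to 0.11. With quantile normalization FDFT1 (0.18, adjusted p = 0.000143), MSMO1 (0.24) and SCAP (0.19) passed as higher, as they did with median-ratio scaling (0.10, 0.16 and 0.14). HSD17B7 passed as higher with median-ratio scaling (0.23) and with voom on recovered reads (0.22). ABCA1, at −0.11, passed as lower when only the compared groups were fitted (adjusted p = 0.033) and with voom (0.0201), among other settings.

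In siP300 the lysosomal genes NPC1 and NPC2 were higher and the storage gene SOAT1 lower. NPC1 was at 11.7, 13.3 and 12.5 FPKM beside 7.43, 7.61 and 7.43 in siNC (0.67, adjusted p = 1.39e-07), and NPC2 at 33.2 ± 1.28 beside 22.6 ± 0.455 (0.54). SOAT1 fell to 5.91, 6.59 and 6.64 FPKM, 45.6% of siNC (−1.02, adjusted p = 1e-08), below the siOGA libraries as well. ABCG1, an exporter that LXR switches on, was too low to be tested but stood at 1.63, 1.47 and 1.79 FPKM in siP300. Its other libraries ranged from 0.327 to 0.736, so no siP300 library overlapped any other. NSDHL was at 25.7, 25.8 and 25.7 FPKM (−0.40, adjusted p = 4.23e-06) and DHCR7 at 28.6 ± 0.199 (−0.15, adjusted p = 0.00305). PMVK was at 12.6, 11.1 and 12.9 FPKM (−0.33, adjusted p = 0.0405), a call lost without siNC replicates 1 or 2, any siP300 replicate, or siP300+OGA replicates 2 or 3 (adjusted p = 0.0501 to 0.131). With quantile normalization DHCR7 was at −0.01 and did not pass either.

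Set directly against siP300, siOGA had 22 members higher and 7 lower of 30. With quantile normalization the counts were 17 and 8, beside 4866 higher and 4724 lower of all 13166 genes tested. SREBF2 (0.08), SCAP (0.09), NPC2 (0.12), NSDHL (0.09) and IDI1 then did not pass. MYLIP did not pass, except as lower with quantile normalization (−0.15, adjusted p = 0.00473). Of all genes tested 74.1% were called in that comparison, 39.3% higher and 34.8% lower, so the members' share lower (23.3%) was below the background. The members' median was 0.38 on the log2 scale, beside 0.04 for all genes, and the libraries did not overlap in 29 of the 30 members and in 75% of all genes tested. SREBF1 (−1.45 ± 0.0466, adjusted p = 5.33e-10), TM7SF2 (−1.36) and LSS (−0.88) were lower in siOGA than in siP300, as were PMVK (−0.83), ABCA1 (−0.62), NPC1 (−0.60) and GGPS1 (−0.38). HMGCS1 (1.74), STARD4 (1.41), SC5D (1.29), FDFT1 (1.22), MVD (1.22), MSMO1 (1.19) and INSIG1 (1.14) were the largest differences the other way. IDI1 rose in both knockdowns and differed between them by 0.20 (adjusted p = 0.00433). This difference depended on the processing, from −0.0010 with quantile normalization to 0.82 at the highest of the alternatives.

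**Figure D4:**
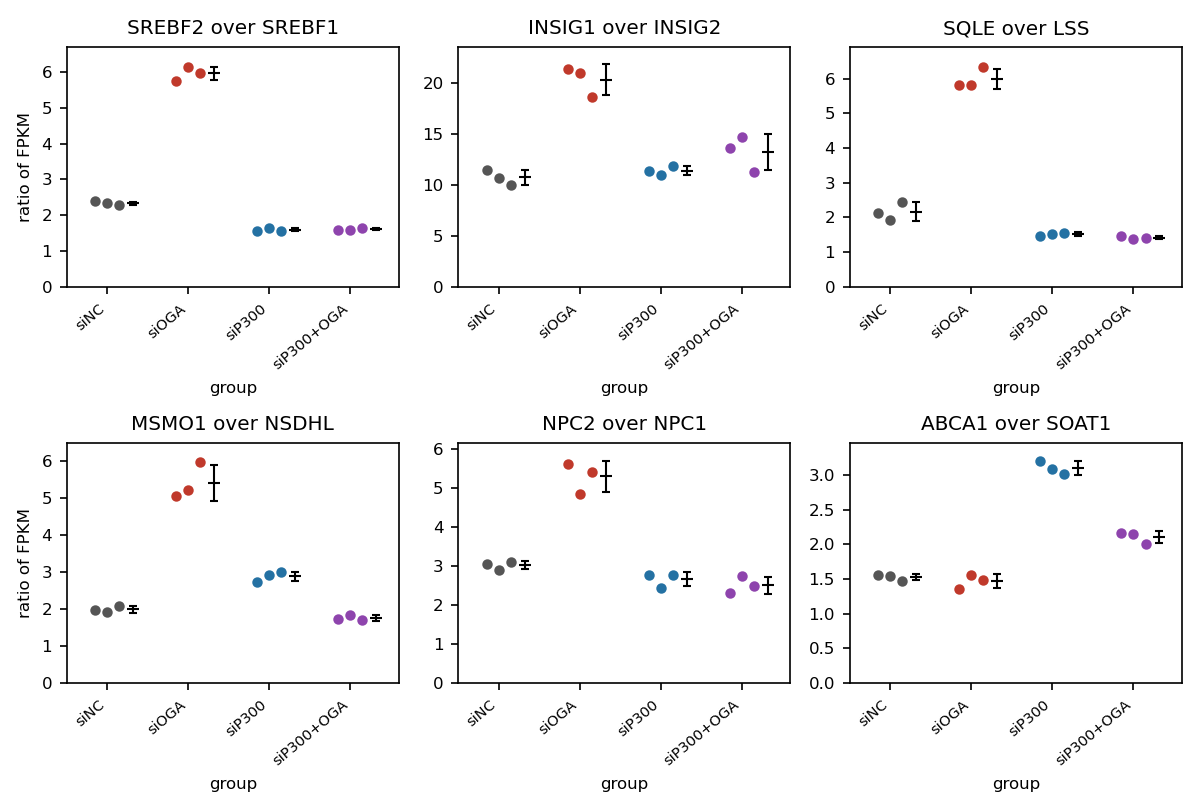
Ratio of the FPKM of 2 members in each library, for 6 pairs with related roles, on linear axes from 0. Points are libraries, and the bar is the mean with its SD over 3. Mean ratios are highest in siOGA for 5 pairs, whereas ABCA1 over SOAT1 is highest in siP300 (3.10) and its siOGA libraries (1.36 to 1.56) overlap those of siNC (1.48 to 1.56).

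The libraries labelled siP300+OGA were set against siP300, with which they share the EP300 siRNA. Here 6 members were higher, 11 were lower and 13 did not pass, while 48.2% of all genes tested were called, 27% higher and 21.2% lower. As shares of the 30 members these are 20% and 36.7%, and the median log2 difference was −0.09 beside 0.03 for all genes. The libraries did not overlap in 20 of the 30 members (66.7%) and in 59.6% of all genes tested. Of the 6 transport genes tested, 5 were lower and SOAT1 did not pass. ABCA1 was at 13.1, 13.1 and 12.6 FPKM beside 18.9, 20.3 and 20.01 in siP300 (−0.58, adjusted p = 2.46e-06). NPC2 was at 20.3, 23.2 and 22.5 beside 32.6, 32.4 and 34.7 (−0.58, adjusted p = 1.28e-05), and NPC1 at 8.80 ± 0.298 beside 12.5 ± 0.767 (−0.46). No library of one group reached the other for these 3 genes. STARD4 (−0.35) and MYLIP (−0.31) were lower too, ABCG1 was at 0.586, 0.736 and 0.581 FPKM, and SOAT1 at 6.15 ± 0.124 beside 6.38 ± 0.407 (−0.04, 95% interval −0.15 to 0.06).

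Among the enzymes, IDI1 (−0.55), MSMO1 (−0.39) and HMGCS1 (−0.20) were lower in siP300+OGA than in siP300. None of these 3 calls held with regional medians removed (0.10, −0.13 and −0.03). NSDHL (0.31), DHCR7 (0.26), ACAT2 (0.26), HSD17B7 (0.27) and PMVK (0.35) were higher. The PMVK call was lost without siNC replicates 1 or 2, siOGA replicate 1, or any siP300 or siP300+OGA replicate (adjusted p = 0.0503 to 0.133). The HSD17B7 call was lost without siP300 replicates 1 or 3 or siP300+OGA replicates 1 or 2 (adjusted p = 0.0562 to 0.0788). LSS (39.2 ± 0.623 FPKM) and TM7SF2 (9.69 ± 0.980) differed from siP300 by 0.06 (95% interval −0.05 to 0.18) and 0.02 (−0.20 to 0.24), which did not pass. SREBF1 (−0.19), SREBF2 (−0.18) and INSIG2 (−0.22) were lower and SCAP was higher at 22.2, 22.2 and 22.8 beside 17.6, 16.5 and 17.1 FPKM (0.37, adjusted p = 0.000127). The INSIG2 call was lost without siP300 replicates 2 or 3 or siP300+OGA replicates 1 or 2 (adjusted p = 0.0516 to 0.0886). With quantile normalization MVD (−0.26), FDFT1 (−0.15), SQLE (−0.18) and INSIG1 (−0.20) passed as lower and CYP51A1 (0.32) as higher.

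Against siNC, which is also the control above, the libraries labelled siP300+OGA had 13 members higher and 4 lower, where 60.9% of all genes tested were called, 30.8% higher and 30.2% lower. Libraries did not overlap in 20 of the 30 members, beside 67.7% of all genes tested. TM7SF2 (1.10), LSS (0.73), MVK (0.68) and SREBF1 (0.59) were the largest rises, and SOAT1 (−1.07), ABCA1 (−0.68), MYLIP (−0.36) and MSMO1 (−0.27) the falls. HMGCS1 was at 43.3, 45.4 and 43.4 FPKM, overlapping the siNC libraries, with a difference of −0.0019 and a 95% interval of −0.09 to 0.09. DHCR7 was called higher (0.11, adjusted p = 0.0187), but not without siNC replicate 2 (adjusted p = 0.0573) or siP300+OGA replicate 3 (0.0528).

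Some members lie where many neighbouring genes moved together, so each difference was also computed after subtracting the median of the tested genes in its 20 Mb region. Around LSS (ENSG00000160285, chromosome 21, 46188141 to 46228824, minus strand) the 59 tested genes had a median of −0.45 relative to all genes in siOGA minus siNC. With it removed LSS was higher in siOGA (0.31, adjusted p = 0.000277) in place of lower. NSDHL on chromosome X then stood at 0.09 (adjusted p = 0.053). Around IDI1 (ENSG00000067064, chromosome 10, 1039152 to 1049119, minus strand) the 55 tested genes were at 0.59 in siP300 minus siNC and at −0.59 in siP300+OGA minus siP300. IDI1 itself was then at 0.42 (adjusted p = 2.35e-05) in the first and 0.10 (adjusted p = 0.146) in the second, in place of 1.04 and −0.55. In siOGA the IDI1 region was at 0.01 and IDI1 stayed at 1.23. STARD4 in siOGA went from 1.9 to 1.5 and MVK from 0.98 to 0.61, both still passing. SQLE (0.04) and PMVK (−0.28) in siP300 minus siNC, HMGCS1 (−0.03) and MSMO1 (−0.13) in siP300+OGA minus siP300, and MVK (0.06) and INSIG2 (0.15) in siOGA minus siP300 no longer passed. In siP300+OGA minus siNC the calls of MSMO1 (−0.05), INSIG1 (0.08) and DHCR7 (−0.04) were lost. Other members passed only then. These were SCAP (0.27) and INSIG2 (0.18) in siP300 minus siNC, MVD (−0.22) and SC5D (−0.24) in siP300+OGA minus siP300, and HMGCS1 (0.14), FDPS (0.08), STARD4 (0.23) and NPC2 (−0.27) in siP300+OGA minus siNC. What moved these regions was not tested.

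**Figure D5:**
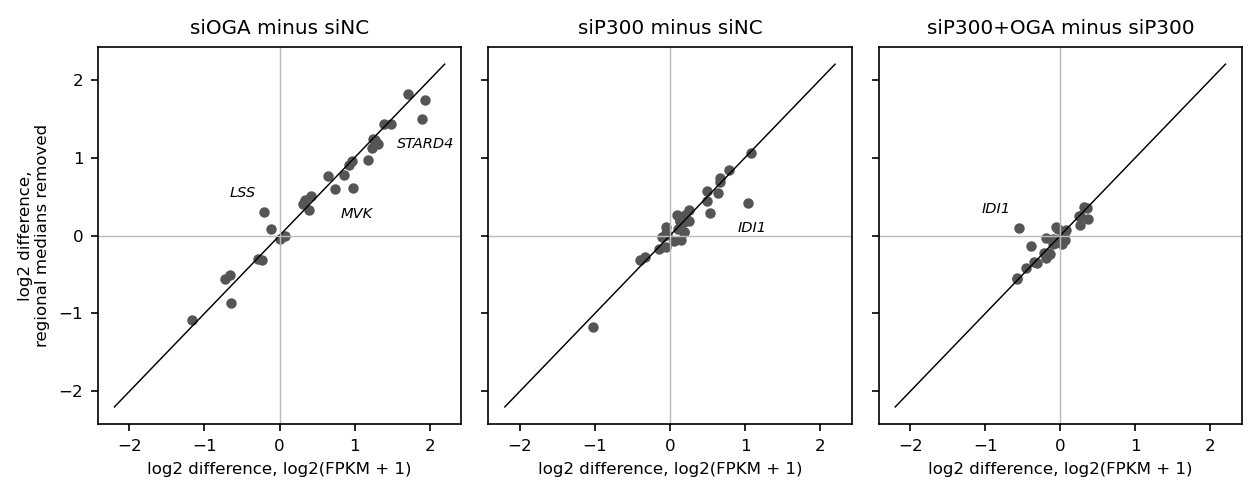
Log2 difference of each of the 30 tested members before (horizontal axis) and after (vertical axis) subtracting the median difference of its 20 Mb region, in 3 comparisons. The diagonal marks equal values, and members that moved by more than 0.3 are named. LSS in siOGA and IDI1 in siP300+OGA minus siP300 change sign, while most points lie near the diagonal.

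Several members overlap other genes, and no label states which strand was counted, which leaves their levels uncertain. ACAT2 overlaps TCP1 on the opposite strand, which fell in siOGA while ACAT2 rose (154 to 87.2 FPKM, −0.81). MVK overlaps MMAB on the opposite strand, a cobalamin enzyme that rose with it in siOGA (0.73) and siP300 (0.49). TM7SF2 overlaps VPS51 on its own strand, and VPS51 fell in siP300 (−0.22) while TM7SF2 rose. In siOGA both were lower (VPS51 −0.42, TM7SF2 −0.28). CYP51A1 and GGPS1 overlap AKAP9 and ARID4B on the opposite strand, both of which rose in siOGA (0.46 and 0.40). FDPS, STARD4 and NPC2 overlap RUSC1-AS1, STARD4-AS1 and ISCA2 on the opposite strand, which rose there too (0.81, 0.50 and 0.20). SOD2, also opposite ACAT2, fell in siOGA (−0.16), and RMC1, opposite NPC1, did not pass. HSD17B7 has near copies named HSD17B7P2, which drew 278 and 64 reads over all libraries beside 8927 for the gene.

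Genes that act beside these members were counted in the same fit. Of all genes tested there, 34% were higher and 32.9% lower in siOGA, and 30.2% and 35.7% in siP300. All 10 SREBP targets of fatty acid synthesis and related genes were higher in siOGA than in siNC (median 0.52), led by ACSS2, which makes acetyl-CoA from acetate (17.8 to 52.1 FPKM, 1.5, adjusted p = 1.78e-10). In siP300, 6 of the 10 were higher and 3 lower. The desaturase FADS2 rose from 11.1 to 33.5 FPKM (1.52) and ACSS2 fell to 10.4 (−0.72). Of 8 genes for SREBP cleavage and sterol-sensed degradation, 2 were higher in siOGA and 4 lower (25% and 50%, median −0.14). MBTPS2, a protease that releases SREBP, fell from 6.98 to 4.02 FPKM (−0.67, adjusted p = 8.69e-07). In siP300 the counts were 2 and 2, with the ubiquitin ligase RNF145 rising from 7.60 to 22.9 FPKM (1.48).

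Of 8 genes that use isoprenoids, 2 were higher and 4 lower in siOGA (25% and 50%, median −0.20). All genes tested gave 34% and 32.9% there. In siP300 2 were higher and 3 lower (25% and 37.5%, median −0.18), near the shares over all genes (30.2% and 35.7%). DHDDS, a subunit of the enzyme that starts dolichol, fell from 7.17 to 2.78 FPKM in siOGA (−1.12, adjusted p = 5.79e-08), and its partner NUS1 fell from 42.8 to 26.4 in siP300 (−0.68). PGGT1B, a prenyltransferase subunit, rose in siOGA (0.30, but −0.10 with its regional median removed) and PDSS1, of ubiquinone synthesis, in siP300 (0.72). Among genes of sterol movement, uptake and oxysterols, 11 of 13 were tested, and 9 were higher and 1 lower in siOGA (median 0.39). ERG28, known in yeast as a scaffold of the methyl-removing enzymes, rose from 20.1 to 41.2 FPKM (1.00), and LBR, which can do the reductase step of TM7SF2, fell from 28.6 to 20.5 (−0.47). In siP300 4 were higher and 5 lower (median 0.03), from CYP27A1, which makes an oxysterol (0.679 to 3.27 FPKM, 1.34), to GRAMD1C, a sterol transfer protein (3.59 to 0.810, −1.34).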

How the data were processed

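RNA was measured in 12 libraries of H9 cells, grouped by sample title into 4 groups of 3. The file holds FPKM as deposited by the authors, for 62753 genes (the values of 1 were emptied in the copy used). Per the labels' protocols, poly(A) RNA went into dUTP-stranded libraries with molecular identifiers, sequenced in pairs. The submitters' processing notes list HISAT2 2.0.4, StringTie 1.3.4d, cutadapt 1.9, UMI-tools, edgeR, DESeq2 and GRCh38 with no roles. Within a library every value was a whole multiple of 1 step (100% within 0.01), which gave whole reads, 16238225 to 18714572 per library. The steps imply library sizes of 0.935 to 1.06 times those sums.

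Tests used limma 3.58.1 (R 4.3.3) on log2(FPKM + 1). The fit had an intensity trend, took all 12 libraries (8 residual degrees of freedom) and kept 13166 genes whose mean reached 1 FPKM, leaving out 49587. Tests were two-sided, with Benjamini-Hochberg adjustment over all genes within each of 5 comparisons. The pseudocount of 1 means that log2 differences understate the change of low genes. The fit was tested on simulated data. With 3 against 3 libraries, exact permutation could not reach a two-sided p under 0.1 and was not used. Libraries of a group differed by more than sampling noise (chi-square per degree of freedom 2.03 to 6.07 over 12 pairs). That does not show separate cultures, since library preparation can add such spread. Each library was counted as 1 sample. Correlations of deviations between libraries with the same replicate number were −0.06 to 0.13 over 18 pairs, so the numbers were not used as pairs. The labels give no batch.

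The members, the other gene lists, the tests and the rule for naming genes were chosen with earlier results of these data known. The rule named all members, OGA and EP300, and the largest called rise and fall of each other list in siOGA and siP300. Some genes that the rule named are not reported here. Genes that overlap a member were named after their values were seen. Promoter sequences are RefSeq's (GRCh38.p14). For a gene with several windows, the start nearest the listed 5′ end was used. Alternatives were pseudocounts of 0.1 and 5, no minimum or a mean of 5 FPKM, quantile and median-ratio scaling, fits restricted to the compared groups, a replicate block, no intensity trend, regional medians removed (20 Mb, at least 20 tested genes), leaving out each library and, chosen after seeing the data, voom on the recovered reads.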

Additional observations from a re-analysis of the deposited data

How the results depend on the processing

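Under 23 alternatives, the call of 24 of the 28 members called in siOGA minus siNC never changed, nor that of 15 of 19 in siP300 minus siNC, 11 of 17 in siP300+OGA minus siP300, 14 of 17 in siP300+OGA minus siNC and 22 of 29 in siOGA minus siP300. Counts of members moved beyond 1.5 times in only these cases: the 8 lower in siOGA minus siNC became 5 without siOGA replicate 3 (range 5 to 8 over the libraries left out), and the 4 lower in siP300 minus siNC became 2 with quantile normalization. Replicate numbers did not pair the libraries, and a replicate block gave 20 higher and 7 lower, 15 and 5, 6 and 12, 14 and 5, and 22 and 7 in the order of comparisons above. Of the 12 libraries, 3 correlated best with their own number in the other groups. Voom on the recovered reads gave 20 and 8, 17 and 5, 7 and 12, 13 and 4, and 22 and 7.

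Most reversals were of differences that had not passed the test. With the 20 Mb regional medians removed, the values in siOGA minus siNC were LSS 0.31, NSDHL 0.087, NPC1 −0.012 and MYLIP −0.043. In siP300 minus siNC they were FDPS 0.0089, GGPS1 −0.056, FDFT1 −0.064, EBP 0.10 and MYLIP 0.033. In siP300+OGA minus siP300 they were IDI1 0.096, FDFT1 0.11, SQLE 0.080, LSS −0.061 and TM7SF2 −0.11. In siP300+OGA minus siNC they were HMGCS1 0.14, GGPS1 −0.16, FDFT1 0.041, NSDHL 0.053, EBP 0.064 and DHCR7 −0.037, and in siOGA minus siP300 MYLIP was at −0.076. Quantile normalization gave MYLIP −0.076 in siOGA minus siNC, then FDPS 0.057, EBP 0.051 and MYLIP 0.074 in siP300 minus siNC. It gave FDPS −0.015 and LSS −0.046 in siP300+OGA minus siP300, HMGCS1 0.0036 and FDFT1 0.028 in siP300+OGA minus siNC, and IDI1 −0.0010 and MYLIP −0.15 in siOGA minus siP300. Median-ratio scaling gave FDPS 0.0021 in siP300 minus siNC, TM7SF2 −0.015 in siP300+OGA minus siP300, and HMGCS1 0.0092 and FDFT1 0.0030 in siP300+OGA minus siNC.

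Leaving out 1 library at a time took MYLIP from −0.0095 to 0.031 in siOGA minus siNC and EBP from −0.095 to 0.019 in siP300 minus siNC. In siP300+OGA minus siP300 it took GGPS1 from −0.16 to 0.017 and TM7SF2 from −0.057 to 0.060. In siP300+OGA minus siNC it took HMGCS1 from −0.023 to 0.015, PMVK from −0.051 to 0.062, FDFT1 from −0.021 to 0.0090 and NPC2 from −0.075 to 0.017. The cause of these changes was not tested. The SE of the differences was largest for PMVK (0.127), followed by TM7SF2, CYP51A1 (0.0989) and GGPS1 (0.0909), and ABCG1 entered no test except without the expression minimum. With 3 libraries a group, differences near 0 have no settled sign.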
